A study of Mus musculus with 9 samples.

Results

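Epithelial cells control their volume, their internal pH and the fluid on their surface with a small set of membrane transporters for protons, bicarbonate, sodium, potassium and chloride. The genes described here encode these proteins in NMuMG cells, a mouse mammary gland epithelial line, and comprise the gene families *Slc4* and *Slc26* (bicarbonate and anion transporters), *Slc9* (Na+/H+ exchangers), *Slc12* (cation-chloride cotransporters), *Slc8* and *Slc24* (Na+/Ca2+ exchangers), the Na+,K+-ATPase subunits *Atp1a* and *Atp1b*, the chloride channel *Cftr* and the epithelial sodium channel subunits *Scnn1a*, *Scnn1b* and *Scnn1g*. They were chosen by gene symbol alone, which gave 59 of the 52459 gene symbols in the data. Of these 59 genes, 33 reached at least 1 count per 1000000 counts of the library (CPM) in at least 3 libraries and were tested, and the other 26 were not.

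RNA-Seq was available for 9 libraries, 3 for each of 3 conditions: mock cells, EPR-overexpressing cells and EPRSTOPE-overexpressing cells. EPR is a long noncoding RNA, annotated as *BC030870*, that also encodes a small peptide, and EPRSTOPE is the same RNA with a point mutation that prevents the peptide from being made. All 3 conditions were untreated NMuMG cells grown in serum-containing medium with insulin, stably transfected with a pBICEP-based vector, in which the viral CMV promoter drives the RNA and which was empty in mock cells, selected with G418 and kept as pools, so that mock cells carried the vector and the selection too. The labels do not state whether the libraries of 1 condition came from separate pools or cultures, and p-values then measure only the spread between these libraries.

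The libraries are numbered 203 to 205 (mock), 206 to 208 (EPR) and 209 to 211 (EPRSTOPE), and values per library follow that order. They held from 5972457 to 11876435 estimated counts, so that 3 counts corresponded to 0.253 to 0.502 CPM, and no 2 libraries of a condition agreed within sampling noise. *BC030870* was at 0, 0 and 0.163 CPM in mock, 23.7, 27.0 and 23.9 CPM with EPR and 4.74, 4.17 and 3.80 CPM with EPRSTOPE, so that the loss of the peptide and the lower amount of the RNA cannot be told apart in comparisons of EPR with EPRSTOPE. The summed level of 12 mammary luminal epithelial markers ran from 3693 to 4159 CPM in mock, from 9503 to 10611 with EPR and from 10688 to 11025 with EPRSTOPE. *Krt8* and *Krt18* made up most of this sum, and of the 7 luminal markers tested 7 rose with EPR, 4 rose with EPRSTOPE and 3 were higher with EPR than with EPRSTOPE. *Cdh1* averaged 0.843, 556 and 403 CPM in mock, EPR and EPRSTOPE cells, and *Krt7* 1.87, 9.11 and 1.44 CPM. Of these markers, *Epcam* was at 0 in every mock library, *Cdh1* did not exceed 1.16 CPM there, and *Cldn3*, *Cldn4*, *Cldn7* and *Esrp1* stayed under 1 CPM in all 9 libraries. The sum of 12 mesenchymal markers was 4141 to 4309 CPM in mock, 2226 to 2454 with EPR and 4066 to 4391 with EPRSTOPE, but with EPRSTOPE its members differed. *Vim* averaged 2634, 1768 and 3138 CPM in mock, EPR and EPRSTOPE cells, against 1039, 379 and 782 for *Fn1* and 330.5, 132 and 158 for *Cdh2*, and of the 7 tested 6 fell with EPR and 2 with EPRSTOPE, with none higher. The sum of 6 myoepithelial markers was 10.7 to 12, 1.52 to 1.66 and 2.88 to 3.56 CPM, but its members differed too. *Acta2*, most of the sum in mock, averaged 10.1, 1.17 and 0.801 CPM in mock, EPR and EPRSTOPE cells, against 0.896, 0 and 2.32 for *Krt14*. Immune and adipocyte marker sums did not exceed 1.86 CPM in any library, and the endothelial sum of 11 to 16.7 CPM was nearly all *Pecam1*. The part of these marker differences in the results for the transporters was not tested, and in bulk RNA a change in the number of cells of a type cannot be told apart from a change in RNA per cell.

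As background, Na+,K+-ATPase exports sodium in exchange for potassium and so maintains the gradient that drives the other transporters. The cotransporter NKCC1, encoded by *Slc12a2*, brings sodium, potassium and chloride into the cell across the basolateral membrane of secretory epithelia, whereas potassium-chloride cotransporters (KCCs) let potassium and chloride out. Na+/H+ exchangers extrude acid, and most SLC4 proteins carry bicarbonate in or out. CFTR and the sodium channel ENaC take part in the secretion and absorption of fluid at the apical side.

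With EPR, 15 of the 33 tested transporter genes differed from mock (10 higher and 5 lower), beside 28.1% of all 15370 genes tested (15.2% higher and 12.9% lower). Changed genes were those with a log2 fold change beyond 0.5 and p under 0.01 in the quasi-likelihood test of edgeR, after Benjamini-Hochberg adjustment across every gene tested. With EPRSTOPE, 10 of the 33 differed from mock (7 higher and 3 lower), beside 28.0% of all genes (15.6% higher and 12.4% lower). Between EPR and EPRSTOPE cells 7 differed (4 higher and 3 lower with EPR), beside 13.2% of all genes (6.86% higher and 6.35% lower). The median log2 fold change of the 33 genes was 0.23 with EPR and 0.30 with EPRSTOPE, against -0.01 and -0.04 for all genes tested. Both of these comparisons use the same 3 mock libraries, so their values below are not independent of each other. In all, 18 transporter genes changed in at least 1 comparison and 15 tested genes in none, beside 39.1% of all genes tested that changed in at least 1. Of the 18, 7 averaged less than 1 CPM in at least 1 condition, where fold changes are imprecise.

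**Figure D1:**
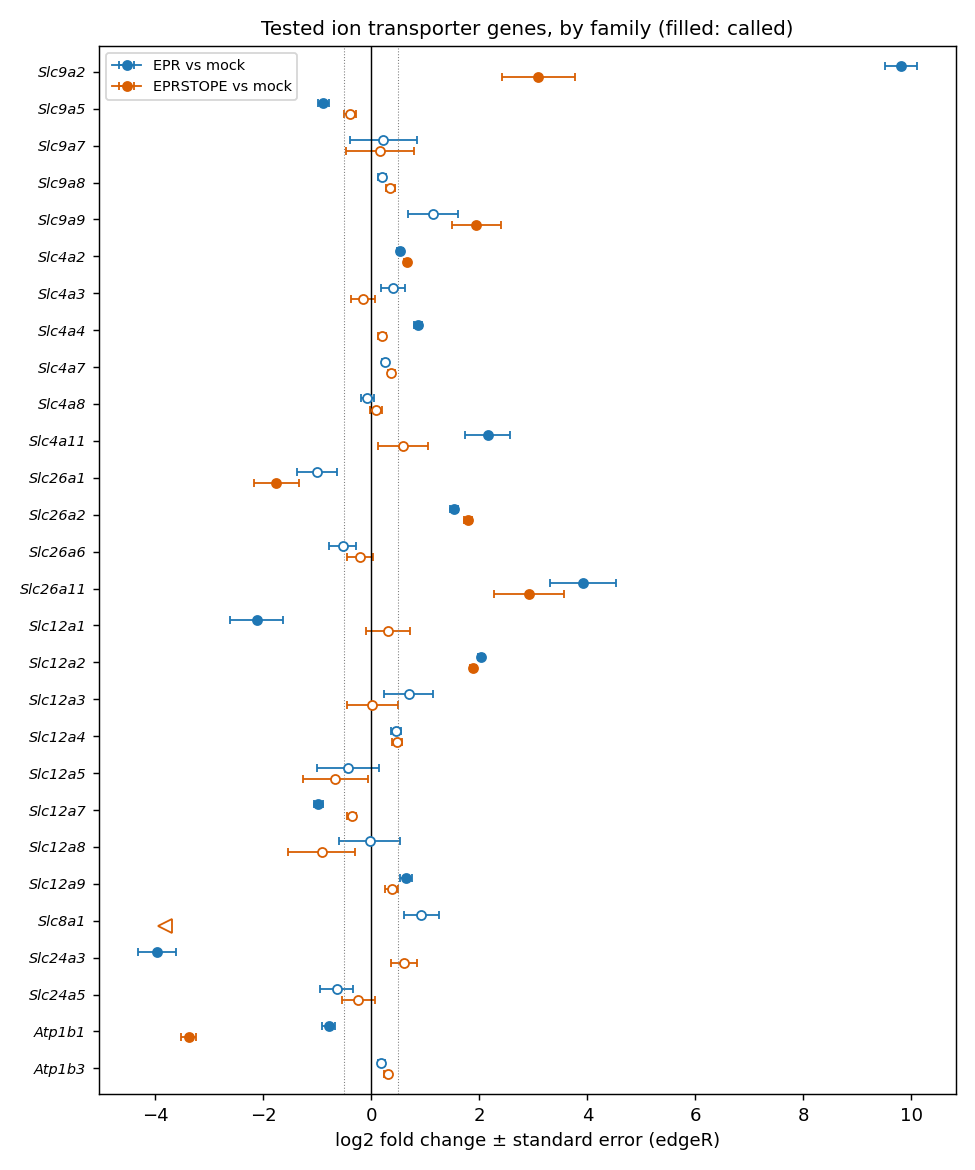
Log2 fold change against mock (horizontal axis) of 28 of the 33 tested transporter genes, ordered by family, for EPR (blue) and EPRSTOPE (orange). Bars are standard errors, filled points passed the thresholds, dotted lines mark a log2 fold change of 0.5 in either direction, and the triangle for *Slc8a1* marks the least size of a decrease that passed, because its EPRSTOPE libraries were at 0. *Slc9a2* with EPR stands farthest from 0 at 9.80, and *Atp1b1* lies to the left in both comparisons.

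Among the cation-chloride cotransporters was the gene that ranked first of all 59 in both transfectants once levels were scaled for transcript length. All 9 *Slc12* genes were tested, and with EPR *Slc12a2* and *Slc12a9* were among those that rose, while *Slc12a1* and *Slc12a7* fell. With EPRSTOPE only *Slc12a2* passed both thresholds among these 9. *Slc12a2* (ENSMUSG00000024597.10, chromosome 18 of GRCm38 from 57878678 to 57946821) was at 379, 366 and 371 CPM in mock, 1494, 1465 and 1617 with EPR and 1436, 1298 and 1392 with EPRSTOPE. Every library with either RNA was thus far above every mock library, and the EPR libraries lay above the EPRSTOPE libraries by a much smaller margin. It rose 4.10-fold with EPR (log2 fold change 2.04, standard error 0.06, adjusted p = 6.7e-11) and 3.70-fold with EPRSTOPE (1.89, standard error 0.05, adjusted p = 1.1e-10) by edgeR. Between EPR and EPRSTOPE it differed by a log2 fold change of 0.15 (95% confidence interval 0.05 to 0.25, adjusted p = 0.052 by edgeR), which passed neither threshold.

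*Slc12a7*, which encodes the potassium-chloride cotransporter KCC4 (ENSMUSG00000017756.9, chromosome 13 from 73733094 to 73816754), was at 111, 120.2 and 122 CPM in mock, 60.5, 60.6 and 57.1 with EPR and 80.6, 90.7 and 102 with EPRSTOPE. The 3 conditions did not overlap, with EPRSTOPE between the other two. It fell by 0.98 on the log2 scale with EPR (adjusted p = 1.1e-06) and was lower with EPR than with EPRSTOPE (-0.62, adjusted p = 0.00015), whereas its change of -0.36 with EPRSTOPE was within the fold threshold (adjusted p = 0.0029, all by edgeR).

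*Slc12a9*, an orphan member of the family (ENSMUSG00000037344.13, chromosome 5 from 137314558 to 137333597), was at 12.1, 14.98 and 14.6 CPM in mock, 23.3, 21.5 and 20.7 with EPR and 16.4, 18.3 and 19.8 with EPRSTOPE. No library overlapped between conditions, and the log2 fold changes were 0.64 with EPR (adjusted p = 0.00066) and 0.38 with EPRSTOPE (adjusted p = 0.020, both by edgeR).

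Among the other *Slc12* genes, *Slc12a1*, the kidney-type cotransporter NKCC2, was near the detection limit, with means of 1.37 CPM in mock, 0.294 with EPR and 1.66 with EPRSTOPE. It was lower with EPR than in mock (log2 fold change -2.12) and than with EPRSTOPE (-2.43), but both calls were near the limit of the adjusted p. The first ended without mock library 203 or any 1 of the 3 EPR libraries (-2.26 to -1.89), and the second without EPR library 207 or 208 or EPRSTOPE library 210 (-2.37 to -2.18), with fold changes close to those over all libraries and adjusted p from 0.011 to 0.015 by edgeR. *Slc12a4*, which encodes the widely expressed KCC1, had log2 fold changes of 0.46 with EPR and 0.48 with EPRSTOPE, just inside the fold threshold (adjusted p = 0.0012 and 0.00088 by edgeR). *Slc12a3*, *Slc12a5* and *Slc12a8* averaged between 0.730 and 1.70 CPM, did not pass in any comparison and had log2 fold changes from -0.92 to 0.89.

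**Figure D2:**
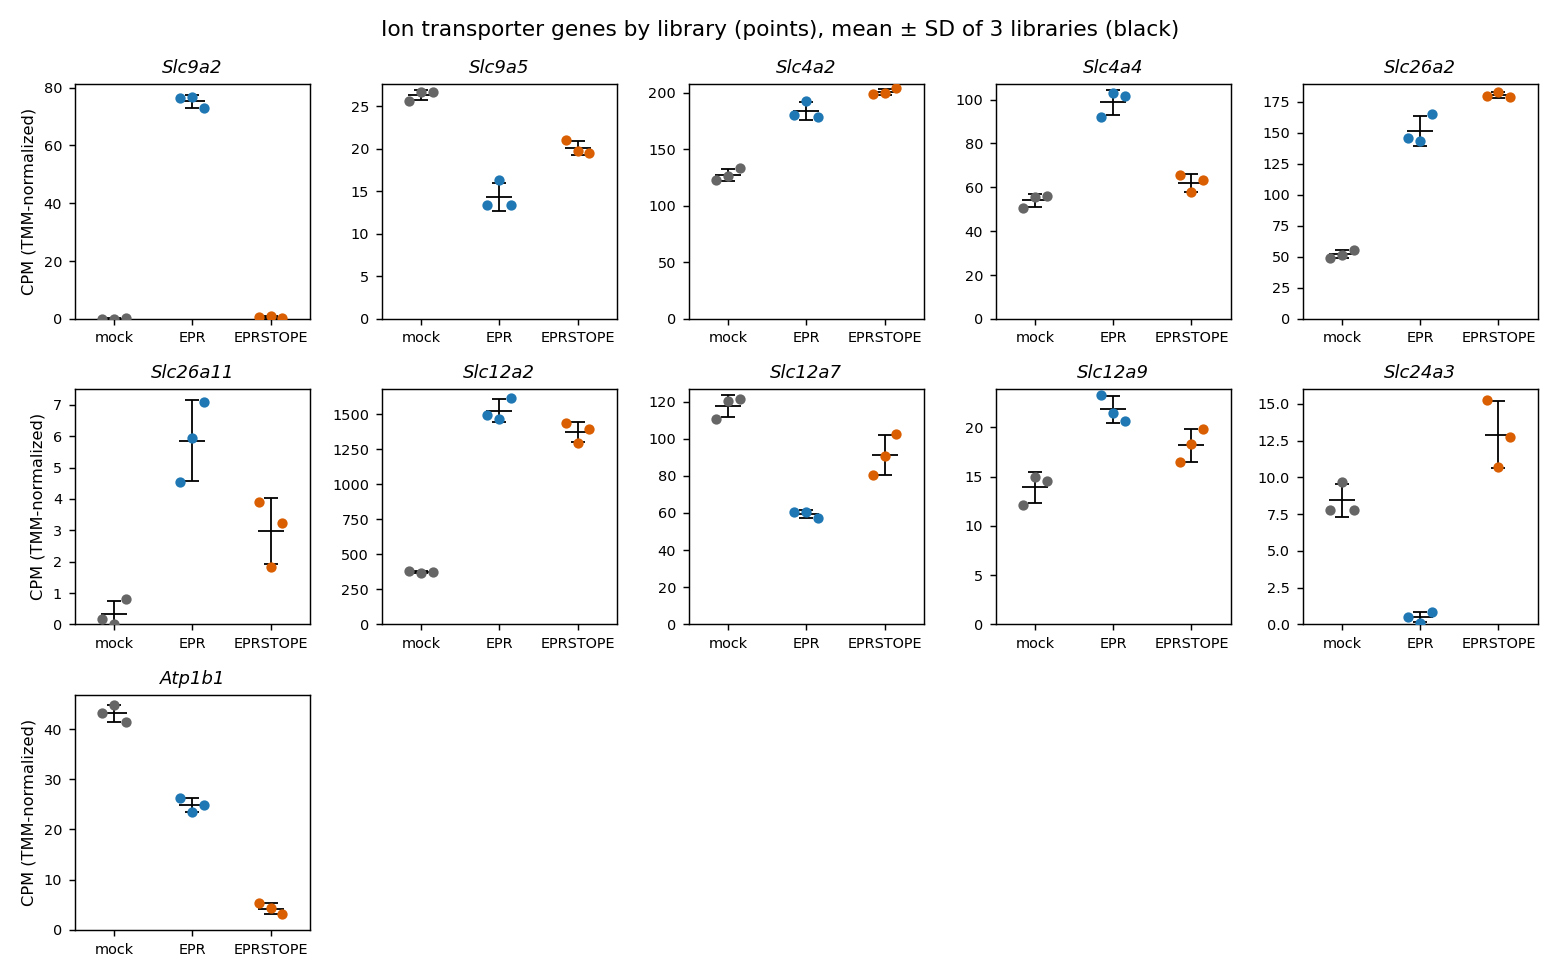
Normalized CPM (vertical axes, each starting at 0) in every library for 11 of the 13 transporter genes that changed in at least 1 comparison and averaged at least 5 CPM in at least 1 condition. Colored points are single libraries, and the black marks give mean ± SD of the 3 libraries. *Slc9a2* stands out in the 3 EPR libraries alone, and *Slc24a3* and *Atp1b1* are lowest in EPR and in EPRSTOPE libraries, respectively.

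Levels were then compared per length, as TPM, in which the transcripts of each library sum to 1000000. By TPM, *Slc12a2* ranked sixth among the 59 genes in mock cells and first in both transfectants. Its share of their summed TPM was 7.44%, 8.49% and 7.61% in mock, 27.2%, 27.7% and 28.0% with EPR and 27.8%, 25.1% and 18.9% with EPRSTOPE. Neither transfectant overlapped with mock (exact permutation test, two-sided p = 0.1, the smallest that 3 libraries against 3 allow), while EPR and EPRSTOPE overlapped (exact p = 0.3). The mean share was 7.85% ± 0.56 in mock, 27.6% ± 0.41 with EPR and 23.9% ± 4.6 with EPRSTOPE (SD, n = 3 each).

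**Figure D3:**
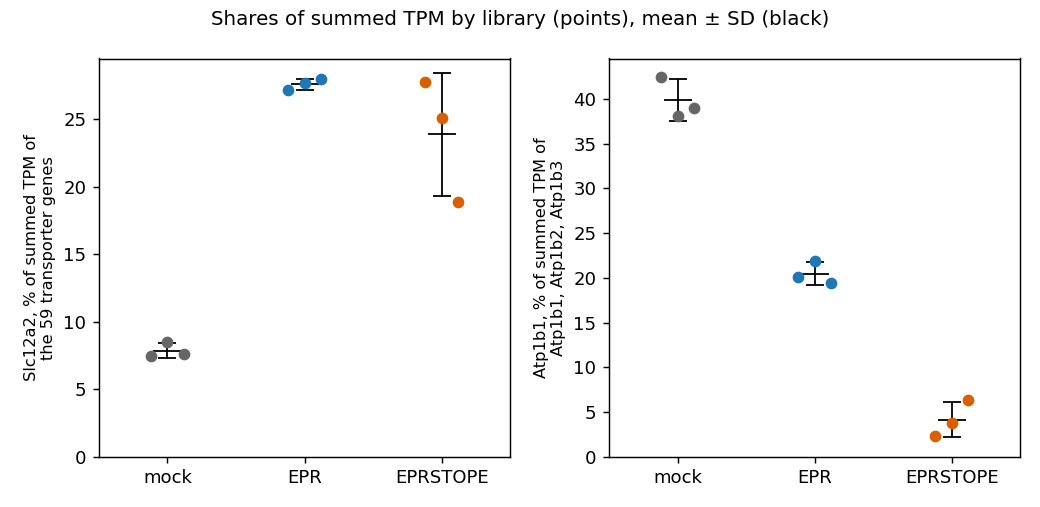
Shares of summed TPM per library, in percent (vertical axes, starting at 0). The left panel shows *Slc12a2* as a share of the 59 transporter genes and the right panel *Atp1b1* as a share of *Atp1b1*, *Atp1b2* and *Atp1b3*, with points for libraries and black marks for mean ± SD. The *Slc12a2* share is 7.85% in mock and 27.6% in EPR cells, and the *Atp1b1* share steps down from 39.9% to 20.5% to 4.15%.

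Among the Na+,K+-ATPase genes, a gene for an accessory subunit fell in both transfectants. The pump needs an α subunit, which binds the ions and ATP, and a β subunit, a glycoprotein that brings it to the membrane and can join neighbouring epithelial cells. *Atp1b1*, the β1 subunit (ENSMUSG00000026576.12, minus strand of chromosome 1 from 164437109 to 164458355), was at 43.2, 44.7 and 41.4 CPM in mock, 26.2, 23.5 and 25.0 with EPR and 5.25, 4.27 and 3.11 with EPRSTOPE. The 3 conditions were separate, with EPRSTOPE the lowest. It fell by 0.79 on the log2 scale with EPR (standard error 0.12, adjusted p = 0.00012) and fell by 3.38 with EPRSTOPE (standard error 0.14, adjusted p = 2.8e-09), a 10.4-fold decrease, and was 6.02-fold higher with EPR than with EPRSTOPE (adjusted p = 1.4e-07, all by edgeR). Among its annotated transcripts, the full-length *Atp1b1-201* carried from 72.7% to 80.6% of the gene's counts in the 3 conditions. *Nme7*, on the opposite strand, shares 18.7% of the exonic bases of *Atp1b1*, and its means of 12.4, 16.3 and 17.5 CPM in mock, EPR and EPRSTOPE cells did not follow the decrease of *Atp1b1*.

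Since *Atp1b1* gave the largest difference between EPR and EPRSTOPE cells among the transporter genes that averaged at least 10 CPM in mock cells, the 250 bases upstream of its start are shown (RefSeq, build GRCm38.p6, minus strand, chr1:164458356-164458605). Capitals mark matches to a GC box (GGGCGG) or a CCAAT box (CCAAT) on either strand.
Atp1b1 promoter: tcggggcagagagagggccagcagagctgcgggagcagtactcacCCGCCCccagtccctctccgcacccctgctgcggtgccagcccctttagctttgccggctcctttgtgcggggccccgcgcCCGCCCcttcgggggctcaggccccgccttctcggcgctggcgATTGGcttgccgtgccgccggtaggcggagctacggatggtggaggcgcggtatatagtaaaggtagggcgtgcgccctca
This window was 70.4% G and C, against a median of 52.4% for 32851 such windows, and held 2 GC boxes and 1 CCAAT box. At least 1 of these was found in 32.7% and 33.8% of all windows, respectively. Neither the E-box CAGGTG, found in 17.2% of windows, nor the TATA box TATAAA, found in 12.4%, occurred in it on either strand. A match describes the letters and not the binding of a factor.

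The other β subunit in use, *Atp1b3*, had means of 124 ± 6.3, 141 ± 5.3 and 153 ± 10.4 CPM in mock, EPR and EPRSTOPE cells (SD, n = 3 each) and log2 fold changes of 0.19 and 0.30 against mock, within the fold threshold. Per length, *Atp1b1* made up 39.9% ± 2.3 of the summed β TPM in mock, 20.5% ± 1.3 with EPR and 4.15% ± 2.0 with EPRSTOPE (SD, n = 3 each). None of the conditions overlapped (exact permutation p = 0.1 for each pair, the smallest possible). These sums cover all annotated transcripts, and short transcripts weigh more in TPM than in counts. A coding *Atp1b1* transcript of 628 nt held 19.2%, 14.8% and 17.6% of the gene's counts in mock, EPR and EPRSTOPE cells. The shares are therefore not those of the full-length mRNA alone. In CPM, *Atp1b1* averaged 43.1, 24.9 and 4.21 in these conditions, below *Atp1b3* in each.

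The Na+/H+ exchangers held the largest log2 fold change among the 33 tested genes. *Slc9a2* encodes an exchanger of the apical membrane of epithelia (ENSMUSG00000026062.12, chromosome 1 from 40680574 to 40769273). The study singled it out for its difference between EPR and EPRSTOPE, starting from these libraries. Its values here are therefore no independent evidence of that difference. The paper narrowed its list with independent EPRSTOPE transfectant pools and qRT-PCR, which were not analysed here. *Slc9a2* was at 0, 0 and 0.163 CPM in mock, 76.4, 76.8 and 72.8 with EPR and 0.508, 1.07 and 0.460 with EPRSTOPE. The EPR libraries were alone at a high level, and the EPRSTOPE libraries lay just above the mock libraries. With 2262 counts over the EPR libraries and 2 over the mock libraries, the ratio per count sequenced was 1060 (95% exact binomial interval 293 to 8761, for counting error only). The 17 counts of the EPRSTOPE libraries gave a ratio to mock of 10.0 (2.38 to 89.3). The log2 fold changes were 9.80 with EPR (adjusted p = 1.5e-10), 3.09 with EPRSTOPE (adjusted p = 0.0023) and 6.71 for EPR against EPRSTOPE (adjusted p = 1.8e-09, all by edgeR). The call with EPRSTOPE ended without EPRSTOPE library 210 (log2 fold change 2.55, adjusted p = 0.019). Without mock library 205, the only one with counts, the fitted values became 12.4 and 5.66.

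The *Slc9a2* counts in EPR cells came almost wholly from the complete transcript *Slc9a2-201* of 5019 nt, which held 847, 579 and 751 estimated counts or 96.2% of the gene's total. The study had designed a primer pair for this mRNA, shown here because it marks which exons were probed, and both primers match *Slc9a2-201* once.
Forward primer, exon 2: GCGAGTCTCTGCTCAACGAT
Reverse primer, exon 3: ACGTCTACGGTCTGGATGGT
In GRCm38 they lie on chromosome 1 at 40719027 to 40719046 and 40726247 to 40726266, in exons 2 and 3 of 12, and span 91 nt of the transcript. The second coding transcript, *Slc9a2-203*, holds both sites too and carried 3.23% of the counts in EPR cells.

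*Slc9a5*, an exchanger first described in brain (ENSMUSG00000014786.8, chromosome 8 from 105348843 to 105369881), was at 25.6, 26.7 and 26.7 CPM in mock, 13.4, 16.3 and 13.4 with EPR and 21.0, 19.8 and 19.6 with EPRSTOPE. Here too the conditions were separate, with EPR the lowest. It fell by 0.89 on the log2 scale with EPR (adjusted p = 2e-05), and its log2 fold change with EPRSTOPE was -0.39 (adjusted p = 0.0073 by edgeR), within the fold threshold. With counts scaled from TPM the call with EPR ended (-0.60). *Slc9a5-202*, a transcript with a retained intron, held 53.6%, 51.9% and 53.1% of the counts of *Slc9a5* in mock, EPR and EPRSTOPE cells. The endosomal exchanger gene *Slc9a9* rose with EPRSTOPE from 0.976 to 3.98 CPM on average (log2 fold change 1.95, adjusted p = 0.0034 by edgeR), a call that ended without mock library 203 or 204 or EPRSTOPE library 210 (1.68 to 2.04) and with counts scaled from TPM (1.51). *Slc9a7* and *Slc9a8*, which act in the Golgi, passed in no comparison, with log2 fold changes of -0.16 to 0.36. *Slc9a3*, the main apical exchanger of gut and kidney, did not exceed 0.777 CPM in any library, and *Slc9a4* was at 0 in all.

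Of the 6 tested SLC4 genes, 3 rose with EPR, 1 of them also with EPRSTOPE, and none fell, beside 15.2% and 15.6% of all genes tested that rose in these comparisons. *Slc4a2*, which encodes the chloride/bicarbonate exchanger AE2 (ENSMUSG00000028962.14, chromosome 5 from 24423837 to 24440950), was at 123, 127 and 133 CPM in mock, 181, 193 and 178 with EPR and 199, 200.01 and 204 with EPRSTOPE. Both transfectants lay above mock, with log2 fold changes of 0.53 with EPR (adjusted p = 9.8e-06) and 0.65 with EPRSTOPE (adjusted p = 1.5e-06, both by edgeR). The value with EPR dropped just under the fold threshold without mock library 203 (0.495) or EPR library 207 (0.496), and with counts scaled from TPM both calls ended (0.28 and 0.53). *Fastk*, on the opposite strand, shares 13.7% of the exonic bases of *Slc4a2*, and its means were 33.4, 33.8 and 38.0 CPM.

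*Slc4a4*, which encodes the electrogenic sodium-bicarbonate cotransporter NBCe1 (ENSMUSG00000060961.14, chromosome 5 from 88886818 to 89239653), was at 50.6, 55.5 and 55.9 CPM in mock, 92.3, 103 and 101 with EPR and 65.6, 57.7 and 63.2 with EPRSTOPE. EPR stood apart, and EPRSTOPE lay just above mock. The log2 fold change was 0.87 with EPR (adjusted p = 1.1e-06) and 0.20 with EPRSTOPE (adjusted p = 0.045), and EPR was 1.59-fold above EPRSTOPE (log2 0.67, adjusted p = 2.7e-05, all by edgeR), which became 0.47 and was no longer called with counts scaled from TPM. *Slc4a11*, a gene of the corneal endothelium, rose with EPR from 1.06 to 4.74 CPM on average (log2 fold change 2.16, adjusted p = 0.0010 by edgeR), beside 1.53 CPM with EPRSTOPE. Of its few counts, the full coding transcript *Slc4a11-201* held 11.9% in mock, 59.1% with EPR and 91.5% with EPRSTOPE. A transcript with a retained intron held 77.5% in mock and 17.3% with EPR, and had no counts with EPRSTOPE.

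*Slc4a7*, *Slc4a8* and *Slc4a3* did not pass the thresholds. *Slc4a7*, which encodes the sodium-bicarbonate cotransporter NBCn1 and was the second most abundant SLC4 gene by TPM, had log2 fold changes of 0.25 with EPR and 0.37 with EPRSTOPE. It lies on chromosome 14, where the 490 tested genes had medians of 0.49 and 0.59 in these comparisons, while its 20 nearest tested genes had medians of -0.11 and -0.15. *Slc4a8*, with values of -0.07 and 0.09, lies on chromosome 15, where the medians were 0.49 and 0.51 for the 526 tested genes and 1.29 and 0.91 for the 20 nearest. The 18 transporter genes that changed were on other chromosomes, with medians between -0.18 and 0.06. The medians of the 20 tested genes nearest to each ran from -0.50 (*Slc26a1* with EPRSTOPE) to 0.47 (*Slc26a11* with EPR). At both ends the neighbours had the direction in which that gene changed.

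Of the 11 SLC26 anion exchanger genes 4 were tested, and 3 of these changed in at least 1 comparison, beside 39.1% of all genes tested. *Slc26a2*, a sulfate transporter that feeds the sulfation of proteoglycans (ENSMUSG00000034320.14, chromosome 18 from 61192919 to 61211612), was at 48.9, 51.7 and 55.4 CPM in mock, 145, 144 and 165 with EPR and 179, 183 and 179 with EPRSTOPE. The conditions were separate, and EPRSTOPE was the highest. It rose 2.90-fold with EPR (log2 1.54, standard error 0.07, adjusted p = 7.3e-09) and 3.46-fold with EPRSTOPE (log2 1.79, standard error 0.07, adjusted p = 1.8e-09 by edgeR). The difference between the transfectants was -0.25 (95% confidence interval -0.39 to -0.12, adjusted p = 0.015), which passed neither threshold.

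*Slc26a11*, another sulfate and anion transporter (ENSMUSG00000039908.14, chromosome 11 from 119355557 to 119381079), was at 0.155, 0 and 0.814 CPM in mock, 4.54, 5.94 and 7.10 with EPR and 3.896, 1.82 and 3.22 with EPRSTOPE. The mock libraries were all under 1 CPM, and no library of either transfectant was that low. The log2 fold changes were 3.92 with EPR (adjusted p = 0.00021) and 2.92 with EPRSTOPE (adjusted p = 0.0028, both by edgeR). Without mock library 205 they became 6.23 and 5.23, and without mock library 203 the call with EPRSTOPE ended (2.67, adjusted p = 0.010), as it did with counts scaled from TPM (2.03). A noncoding transcript took 38.4% of its counts in EPRSTOPE cells and 9.81% in EPR cells. *Slc26a1*, a sulfate and oxalate exchanger gene, fell with EPRSTOPE from 2.0 to 0.578 CPM on average (log2 fold change -1.76, adjusted p = 0.0040 by edgeR), but the call ended under DESeq2, with no filter, with counts scaled from TPM and without mock library 203 or 205 or EPRSTOPE library 209 or 210 (-1.78 to -1.26). *Slc26a6* had log2 fold changes of -0.53 and -0.21 and did not pass.

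Only 3 of the 8 Na+/Ca2+ exchanger genes were tested. *Slc24a3*, which encodes the potassium-dependent exchanger NCKX3 (ENSMUSG00000063873.10, chromosome 2 from 145167754 to 145642166), was at 7.77, 9.71 and 7.81 CPM in mock, 0.524, 0.126 and 0.841 with EPR and 15.2, 10.7 and 12.8 with EPRSTOPE. The EPR libraries were near the level of 3 counts, and the EPRSTOPE libraries all lay above the mock libraries. It fell by 3.97 on the log2 scale with EPR (standard error 0.35, adjusted p = 1.7e-06) and was lower with EPR than with EPRSTOPE (log2 fold change -4.57, standard error 0.34, adjusted p = 1.4e-06), a 23.8-fold difference. With EPRSTOPE against mock the log2 fold change was 0.60 (95% confidence interval 0.12 to 1.08, adjusted p = 0.062, all by edgeR), which did not pass.

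The gene has several annotated transcripts, and their estimated counts differed between the conditions. *Slc24a3-204*, a processed transcript, had 32.1, 28.8 and 45.0 estimated counts in mock, 0 in all EPR and 76.0, 53.0 and 69.5 in EPRSTOPE libraries. The coding transcript *Slc24a3-202* had 17.9, 43.9 and 27.2 in mock, 6, 0 and 5.04 with EPR and 0, 37.5 and 26.2 with EPRSTOPE. Both were thus near 0 in the EPR libraries, while *Slc24a3-204* but not *Slc24a3-202* was above every mock library in all EPRSTOPE libraries. The processed transcript *Slc24a3-205* was too, with 0, 0.918 and 0 in mock, 0 in all EPR and 5.68, 4.57 and 5.14 in EPRSTOPE libraries. These estimates are not normalized for depth and depend on how the quantification divides reads shared by transcripts, and no test was made of them. Because the transcripts differed in this way, the 250 bases before 2 RefSeq starts of the gene are shown (RefSeq, GRCm38.p6, plus strand, chr2:145167525-145167774 and chr2:145242361-145242610, capitals as for *Atp1b1*). Whether the transcripts above begin at these RefSeq starts was not tested. The upstream window ends slightly past the gene start given above.
Slc24a3 upstream start: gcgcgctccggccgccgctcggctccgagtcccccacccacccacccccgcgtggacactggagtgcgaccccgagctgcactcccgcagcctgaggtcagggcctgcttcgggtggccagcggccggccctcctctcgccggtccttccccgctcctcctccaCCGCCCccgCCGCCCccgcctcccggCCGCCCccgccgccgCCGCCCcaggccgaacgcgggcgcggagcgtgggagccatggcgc
Slc24a3 downstream start: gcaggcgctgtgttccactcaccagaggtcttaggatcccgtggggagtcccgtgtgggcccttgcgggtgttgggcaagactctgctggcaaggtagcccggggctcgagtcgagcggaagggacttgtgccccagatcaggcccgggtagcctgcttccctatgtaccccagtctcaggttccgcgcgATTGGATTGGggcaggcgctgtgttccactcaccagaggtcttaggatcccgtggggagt
The upstream window was 80.8% G and C with 4 GC boxes and no CCAAT box, and the downstream window 63.6% G and C with 2 CCAAT boxes and no GC box. Neither held CAGGTG or TATAAA.

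*Slc8a1*, which encodes the sodium-calcium exchanger NCX1 of heart and smooth muscle (ENSMUSG00000054640.14, chromosome 17), was singled out after its values were seen. It was at 2.17, 1.79 and 1.55 CPM in mock, 3.58, 3.03 and 3.74 in EPR and 0 in all 3 EPRSTOPE libraries. The 50 counts in mock and 105 in EPR libraries nearly all fell on 1 of its 3 transcripts, *Slc8a1-202*. Against the level that 3 counts over the EPRSTOPE libraries would give, it was at least 14.2-fold lower with EPRSTOPE than in mock (adjusted p = 4.3e-05) and at least 27.9-fold higher with EPR than with EPRSTOPE (adjusted p = 2.5e-05 by edgeR). Its log2 fold change with EPR against mock was 0.93 (adjusted p = 0.040), which did not pass. *Slc24a5*, which acts in melanosomes, averaged 2.29 to 3.57 CPM and did not pass.

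*Cftr* and the ENaC subunit genes were hardly detected in any condition, which does not cover other channels such as *Ano1*, described below. *Cftr* and *Scnn1g* were at 0 in all 9 libraries, which allows up to 0.253 to 0.502 CPM per library, *Scnn1b* did not exceed 0.407 and *Scnn1a* 0.854 CPM. None of the 4 was tested. Other untested genes that had counts peaked in a single library at 1.06 (*Slc4a5*), 1.89 (*Slc26a10*), 0.467 (*Slc4a9*), 0.187 (*Slc4a10*), 0.169 (*Slc4a1*), 0.854 (*Slc26a3*), 0.374 (*Slc26a4*), 0.339 (*Slc26a8*) and 0.175 CPM (*Slc26a9*). Those of further families peaked at 0.422 (*Slc8a2*), 0.534 (*Slc8a3*), 0.311 (*Slc24a4*), 0.349 (*Atp1a4*), 0.345 (*Atp1b2*) and 0.211 CPM (*Atp1b4*). *Slc26a5*, *Slc26a7*, *Slc24a1* and *Slc24a2* had no counts in any library.

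Genes for proteins that work with these transporters were also followed, as a list of 37 of which 20 were tested. They encode scaffolds, exchanger cofactors, FXYD regulators of Na+,K+-ATPase, kinases, a ubiquitin ligase, carbonic anhydrases, ENaC-cleaving proteases and chloride channels. With EPR 9 of the 20 changed (7 higher and 2 lower), with EPRSTOPE 9 (6 higher and 3 lower) and between EPR and EPRSTOPE 5 (3 higher and 2 lower with EPR, or 1 and 3 with counts scaled from TPM). The shares of all genes tested were 28.1%, 28.0% and 13.2%, as above. The medians of the 20 log2 fold changes were 0.25 with EPR, 0.23 with EPRSTOPE and 0.00 between them, against -0.01 and -0.04 over all genes for the first 2 comparisons.

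Among the kinases, *Stk39*, which encodes SPAK, the kinase that phosphorylates and activates NKCC1, was at 32.6, 28.0 and 25.6 CPM in mock, 4.80, 3.28 and 3.18 with EPR and 1.19, 2.14 and 2.65 with EPRSTOPE. All libraries of both transfectants were far below mock. It fell by 2.91 on the log2 scale with EPR (adjusted p = 3.7e-07) and by 3.79 with EPRSTOPE (adjusted p = 8.6e-08, both by edgeR). The closely related *Oxsr1* averaged 115, 97.0 and 83.1 CPM and did not pass, at log2 fold changes of -0.25 and -0.47. *Nedd4l*, a ubiquitin ligase that removes ENaC from the membrane, was at 58.6, 54.3 and 54.4 CPM in mock, 29.2, 30.9 and 31.8 with EPR and 41.8, 44.0 and 34.9 with EPRSTOPE. It fell with EPR (-0.86, adjusted p = 9.4e-06) and had a log2 fold change of -0.47 with EPRSTOPE, within the fold threshold, with no overlap between conditions. Of the other kinases, the upstream regulator *Wnk4* rose in both comparisons with mock (1.66 and 2.15), whereas *Wnk1* fell with EPRSTOPE (-0.56) and was at -0.46 with EPR, within the fold threshold, and did not pass between the transfectants (0.10). *Sgk1* rose with EPRSTOPE (0.54), was at -0.27 with EPR and was lower with EPR than with EPRSTOPE (-0.81, adjusted p = 6.7e-05 by edgeR). These 3 genes, *Oxsr1* and *Ano1* were named after their values were seen.

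*Car2*, which encodes the cytosolic carbonic anhydrase that supplies bicarbonate and protons, was at 1.24, 2.43 and 2.60 CPM in mock, 15.01, 17.0 and 14.2 with EPR and 10.7, 8.22 and 7.59 with EPRSTOPE. The conditions were separate and EPR was the highest. It rose with EPR (log2 fold change 2.81, adjusted p = 1.1e-06) and with EPRSTOPE (2.0, adjusted p = 2.8e-05), and was higher with EPR than with EPRSTOPE (0.81, adjusted p = 0.0098, all by edgeR). The last of these calls was just under the limit of the adjusted p. *Car4*, *Car9* and *Car12* did not exceed 0.508 CPM. The chloride channel gene *Clcn2* was at 2.80, 5.06 and 3.91 CPM in mock, 8.38, 8.71 and 9.91 with EPR and 11.4, 12.9 and 14.5 with EPRSTOPE, above mock in every library of both transfectants (log2 fold changes 1.17 and 1.70, adjusted p = 0.00054 and 2.7e-05). The calcium-activated chloride channel gene *Ano1* averaged 366, 381 and 394 CPM and did not pass, at 0.06 and 0.11.

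Of the cofactors, *Chp1*, which binds and stabilizes Na+/H+ exchangers, was at 151, 173 and 150.5 CPM in mock, 264, 238 and 237 with EPR and 323, 327 and 315 with EPRSTOPE. The conditions did not overlap, and it rose with both RNAs (log2 fold changes 0.64 and 1.03, adjusted p = 1e-05 and 1.6e-07 by edgeR). The PDZ scaffolds that tether exchangers and CFTR to the cytoskeleton differed from each other. *Slc9a3r1* was at 52.2, 50.5 and 45.4 CPM in mock, 80.8, 75.8 and 67.9 with EPR and 90.1, 85.6 and 90.8 with EPRSTOPE, and rose in both comparisons (0.60 and 0.85). *Slc9a3r2* was at 57.3, 59.5 and 62.7 CPM in mock, 64.5, 72.2 and 58.9 with EPR and 29.1, 37.1 and 33.4 with EPRSTOPE. It overlapped between mock and EPR and was separate only in EPRSTOPE, where it fell by 0.84 on the log2 scale (adjusted p = 2.1e-05), and it was higher with EPR than with EPRSTOPE (0.96, adjusted p = 1.9e-05, both by edgeR).

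**Figure D4:**
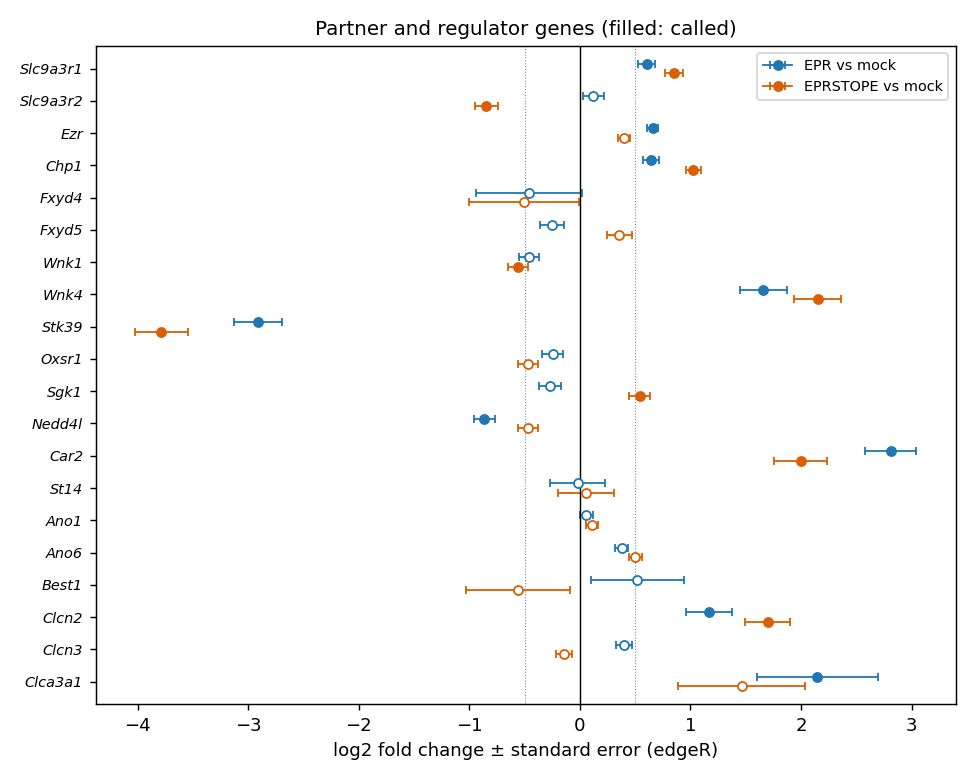
Log2 fold change against mock (horizontal axis) with standard error for the 20 tested partner and regulator genes, for EPR (blue) and EPRSTOPE (orange). Filled points passed the thresholds, and dotted lines mark a log2 fold change of 0.5 in either direction. *Stk39* lies farthest to the left in both comparisons at -2.91 and -3.79, and *Car2* farthest to the right with EPR at 2.81.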

How the data were processed

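RNA-Seq covered 3 mock, 3 EPR and 3 EPRSTOPE libraries of NMuMG cells, 9 in all, grouped by the genotype label and named by the library numbers 203 to 211 of the titles. The authors quantified reads with kallisto 0.43.1 on Gencode vM15 transcripts and deposited an unnormalized estimated count and a TPM value per transcript (131100 transcripts), the second scaled by the authors for effective length and library size. The libraries are described as stranded, and whether kallisto was run with a strand setting is not given in the sources used here. Reads shared by similar or overlapping transcripts are divided by estimation, which limits transcript values and low counts beside an abundant relative.

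Estimated counts were summed per gene symbol and rounded, since the test needs counts. The 15370 genes that reached 1 CPM in 3 or more libraries were fitted with edgeR 4.0.16 in R 4.3.3 (TMM normalization, 1 factor of 3 levels over all 9 libraries, quasi-likelihood test, Benjamini-Hochberg adjustment over all genes tested). Calls required a log2 fold change beyond 0.5 with an adjusted p under 0.01, the filter and thresholds having the values in the study's methods, which applied them to single transcripts with limma-voom. Standard errors derive from the F statistic. CPM values are TMM-normalized. The script was tested on simulated counts with a log2 fold change of 1.5. It recovered 142 of 142 changed genes averaging at least 5 CPM but 36 of 58 below that level. A gene under 5 CPM that did not pass may therefore still have changed. Shares used TPM and the exact permutation test. Positions and overlaps came from Gencode M21 (GRCm38), promoters from RefSeq. Other steps ran in Python 3.11.15 (scipy 1.17.1, numpy 2.4.6, pandas 2.3.3, figures in matplotlib 3.10.9).

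The transporter genes and the partner and marker lists were chosen with earlier results of these data known. By rule, values in every library are given for called genes averaging at least 5 CPM in 1 condition, and for *Slc9a3r1* and the 6 called partners with the largest change among those averaging at least 10 CPM. Alternatives were DESeq2 1.42.0, limma 3.58.1 with voom, RLE size factors, other filters and thresholds, counts scaled from TPM, only the compared conditions, and leaving out each library. Counts and shares cover all transporter genes, but values of some single genes are not reported here, also where the rule names them. Protein, transport and pH measurements were not analysed here.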

Additional observations from a re-analysis of the deposited data

Results flagged for a closer look

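*Slc8a1* is listed because every EPR library lay above every mock library and every EPRSTOPE library below, with EPR 3.449 CPM above EPRSTOPE on average. The difference between the transfectants was tested directly and passed (adjusted p = 2.5e-05 in edgeR's quasi-likelihood test), with 105 counts against 0. *Slc24a3* is listed for the opposite arrangement, with every EPR library below and every EPRSTOPE library above the mock libraries, and EPR minus EPRSTOPE was -12.4 CPM on average (adjusted p = 1.4e-06 in the same test). For *Slc8a1* the separation from mock did not pass with EPR, and for *Slc24a3* it did not pass with EPRSTOPE. Both genes were listed for their values in these same libraries, so the tests are no independent support for the separation.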

How the results depend on the processing

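No paired analysis was possible because the conditions share no replicate numbers. The 18 changed transporter genes made 32 calls over the 3 comparisons. Of their 560 values under the alternatives, 516 kept direction and call, 44 kept direction and lost the call and 0 reversed, and 15 calls held under every alternative that gave a value. Leaving out each library in turn gave 13 to 16 changed transporter genes with EPR, 7 to 11 with EPRSTOPE and 6 to 8 between them, and 8 to 9, 9 to 11 and 3 to 5 changed partner genes, where the 3 came without EPR library 208. At an adjusted p under 0.05 with no fold threshold the counts were 20 with EPRSTOPE and 11 between EPR and EPRSTOPE for transporters, and 14, 14 and 10 for partners. With a log2 fold change beyond 1 they were 8 with EPR for transporters, and 5, 5 and 0 for partners, a stricter threshold by construction. At that last count of 0, edgeR gave 10 partner genes at an adjusted p under 0.05. Requiring at least 10 counts in every library, which removes genes near 0 in 1 condition, left 21 transporter genes tested. Of these, 5 changed with EPRSTOPE and 3 between EPR and EPRSTOPE. Shares of all genes are given for the main thresholds only, so the counts at other settings have none beside them. With counts scaled from TPM, 10 of the 32 transporter genes tested changed with EPR, 7 with EPRSTOPE and 5 between them. The same setting left 5 changed partners with EPRSTOPE. It ended the calls of *Slc12a1* and *Slc12a9* with EPR (-1.92 and 0.65) and of *Slc12a7* between EPR and EPRSTOPE (-0.62), among others. The cause was not tested. No alternative moved the median of all genes by more than 0.067 on the log2 scale. At this depth genes averaging under 1 CPM in a condition give imprecise fold changes. A gene at 0 in a library could have been present there at up to 0.253 to 0.502 CPM.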
